A study of Mus musculus with 72 samples.

Results

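The liver's fasting and nutrient hormones and the receptors that go with them were followed through 9 probes of 6 genes: Fgf21, Gdf15, Klb, Lepr, Igfbp1 and Igfbp2. They were picked by gene symbol out of 30146 probes of 21400 symbols. Fgf21, Lepr and Igfbp2 have 2 probes each, kept apart throughout, and the other genes have 1. All 9 probes passed the filter on low counts. The set was drawn up with results of these data known, and the comparison that prompted each gene is not recorded, so differences between dosed and control animals are given as a description of these genes, with no p-value.

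The animals were 72 female B6C3F1 mice, a hybrid of the C57BL/6 and C3H strains, 9 to 11 weeks old and housed 1 to a cage. Their drinking water held tertiary butyl alcohol (TBA), a solvent and fuel additive, at 0, 10, 20 or 40 mg/mL. Exposure lasted 14 d or 28 d, each duration had its own 0 mg/mL control, and each of the 8 groups counted 9 mice. RNA came from liver sections fixed in formalin, embedded in paraffin and scraped from slides, and was read with TempO-Seq, in which pairs of detector oligos are ligated on a transcript, amplified and counted. The title of the series names thyroid adenomas and an anti-thyroid mode of action as its question. The sources used here do not say whether food was withheld before the livers were taken. Animals were assigned at random within body weight classes, per the labels' protocols, and 1 library was made per animal.

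FGF21 is a hormone that the liver secretes in fasting, in protein restriction and under cellular stress. It signals through an FGF receptor that is paired with the co-receptor beta-Klotho, the product of Klb, which the liver also uses for the bile acid hormone FGF15. GDF15 is a stress hormone that acts on the brainstem receptor GFRAL to lower food intake. The leptin receptor, from Lepr, exists as a long signalling form and as short and soluble forms, and the liver is a source of the soluble form. IGFBP1 and IGFBP2 bind insulin-like growth factors in blood, and in liver both genes are held down by insulin and are raised in fasting.

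The sequences that lie before the start sites of 4 of these genes are shown because they carry short motifs known from work on nutrient and insulin control. Each run is the 250 bases before an annotated start in RefSeq's build GRCm38.p6, read 5′ to 3′ on the gene's strand, with motif matches in capitals. The sources used here do not name the build behind the counts. The 6 genes have 9 such windows between them, and all 6 were matched by symbol.
Fgf21, chr7:45615491-45615740, minus strand: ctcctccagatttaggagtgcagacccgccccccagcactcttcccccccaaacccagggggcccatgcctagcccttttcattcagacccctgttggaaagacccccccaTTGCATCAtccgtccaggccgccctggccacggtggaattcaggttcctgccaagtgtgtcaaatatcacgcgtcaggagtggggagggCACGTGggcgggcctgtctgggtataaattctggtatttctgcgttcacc
Lepr, start 2, chr4:101717656-101717905, plus strand: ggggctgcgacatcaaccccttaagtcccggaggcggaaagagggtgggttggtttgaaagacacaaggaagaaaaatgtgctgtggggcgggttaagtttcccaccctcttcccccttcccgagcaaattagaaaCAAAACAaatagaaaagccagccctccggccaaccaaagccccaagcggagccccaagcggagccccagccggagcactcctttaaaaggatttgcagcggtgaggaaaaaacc
Igfbp1, chr11:7197537-7197786, plus strand: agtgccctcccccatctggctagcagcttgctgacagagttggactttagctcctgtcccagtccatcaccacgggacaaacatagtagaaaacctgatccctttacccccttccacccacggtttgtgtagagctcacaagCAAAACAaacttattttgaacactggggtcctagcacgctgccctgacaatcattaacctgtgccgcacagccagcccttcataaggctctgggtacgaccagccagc
Igfbp2, start 1, chr1:72824230-72824479, plus strand: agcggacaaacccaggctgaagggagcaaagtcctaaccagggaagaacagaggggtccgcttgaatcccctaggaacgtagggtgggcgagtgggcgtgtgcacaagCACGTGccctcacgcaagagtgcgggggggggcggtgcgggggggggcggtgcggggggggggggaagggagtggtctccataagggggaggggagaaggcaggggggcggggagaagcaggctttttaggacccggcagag

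In the Fgf21 window, the core of the amino acid response element, TGATGNAA, was matched on the opposite strand from -139 to -132 relative to the start. This element is known as the site through which the stress factor ATF4 acts. It is held by 3.45% of 32851 mouse windows of 250 bases, searched on both strands. The same Fgf21 window carries the E-box CACGTG from -50 to -45, a letter string found in 6.02% of windows and shared by the first Igfbp2 window, where it starts at -142, and by the second Gdf15 window, where it starts at -83. The core of the insulin response element, CAAAACA, known from the Igfbp1 promoter among others, starts at -108 in the Igfbp1 window and at -114 in the second Lepr window. It is held by 5.56% of windows. The Klb window carried none of the 6 motifs searched. Of the other motifs, the forkhead core TGTTTAC (3.17% of windows), the STAT5 core TTCNNNGAA (7.02%) and the direct repeat of PPAR sites (0.0335%) were matched in none of the 9 windows. A match describes letters and is not a tested site.

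**Figure D1:**
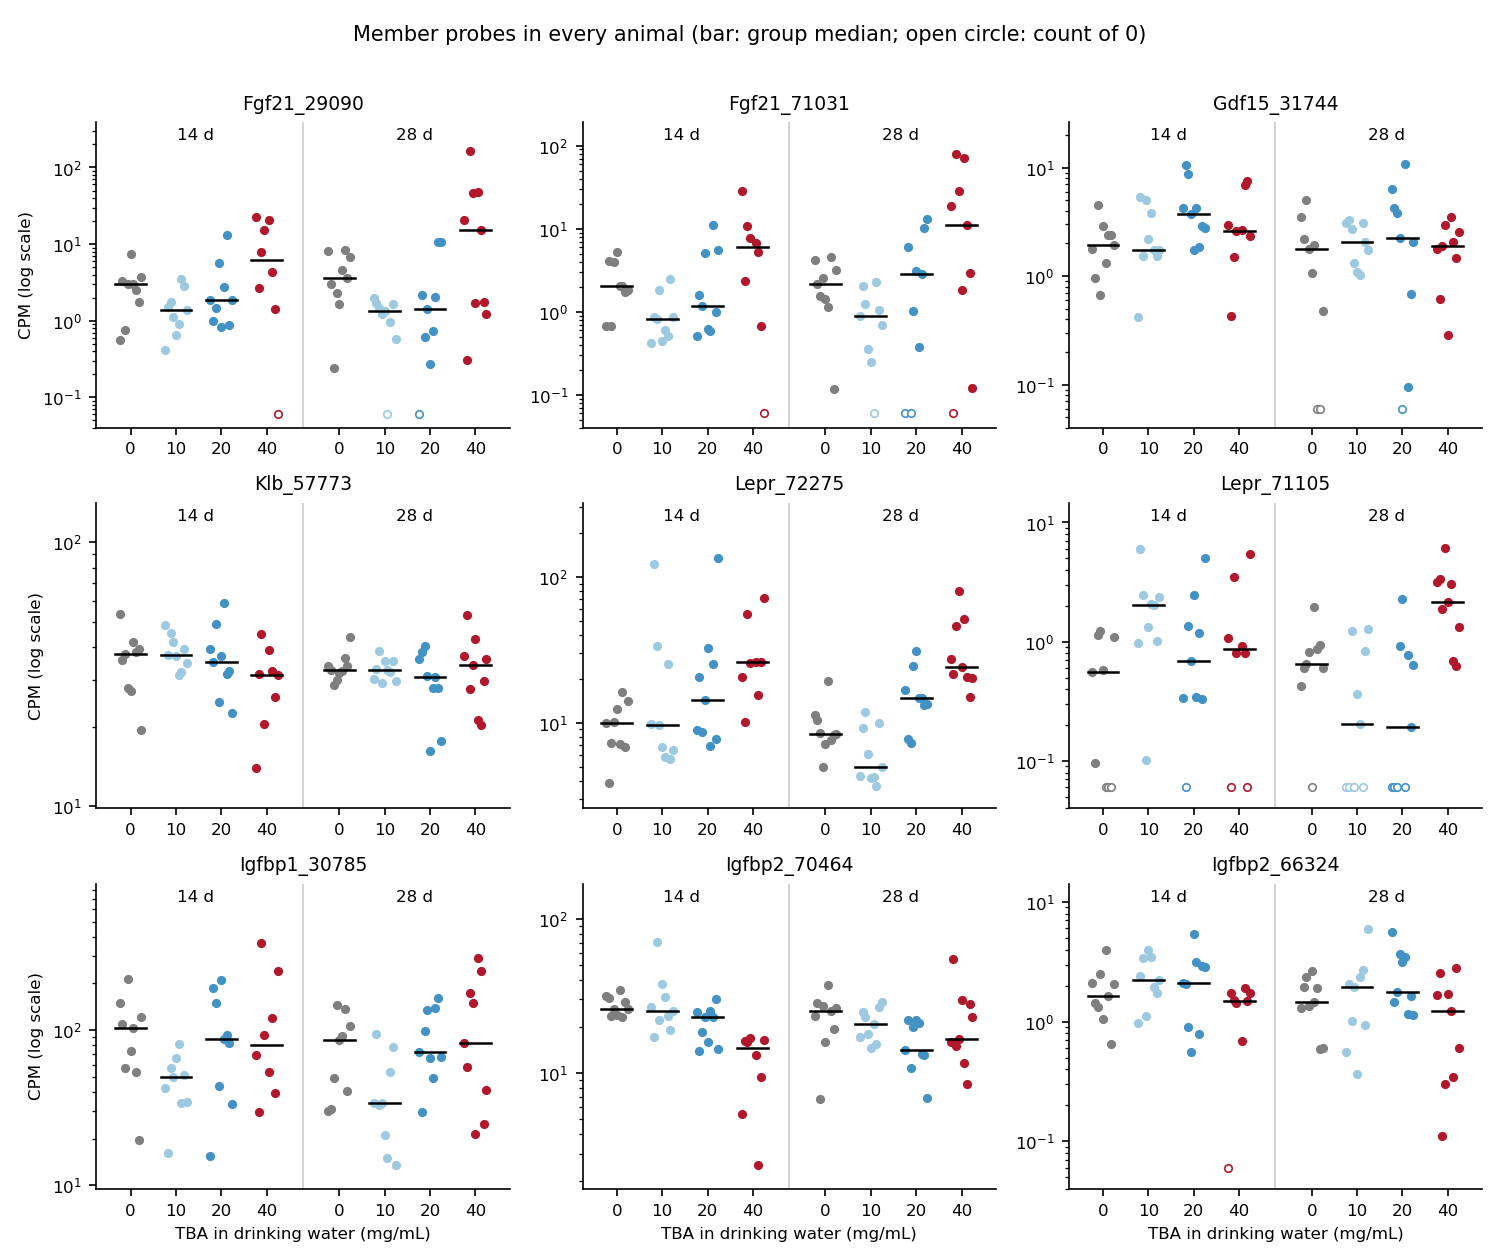
CPM (counts brought to a common library size, log scale) of the 9 probes in each of 71 animals, by dose of TBA in mg/mL at 14 d and at 28 d; each point is an animal, bars are group medians and open circles are counts of 0. At 40 mg/mL and 28 d the animals of both Fgf21 probes spread from near 0 to 162 and 79.7 CPM, while Klb stays between 14.0 and 58.8 CPM in all groups.

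Libraries held 7.77 to 12.7 M counts (median 10.1 M), except 1: replicate 5 at 40 mg/mL for 14 d. That library held 0.0108 M counts and was left out, which leaves 8 animals in that group. Values are CPM, a probe's counts brought to a common library size after TMM scaling, in which a factor per library offsets unequal RNA composition. That factor moved with dose at 14 d: its median was 1.21 (range 0.978 to 1.58) at 40 mg/mL, against 0.898 (0.847 to 0.961) in controls. At 28 d it was 0.988 (0.798 to 1.40) at 40 mg/mL and 0.888 (0.792 to 1.37) in controls. The highest median at 28 d was that of 20 mg/mL, 1.14 (0.907 to 1.48). The summed CPM of 7 hepatocyte markers had a median of 17690 (8549 to 35754) at 40 mg/mL for 14 d, against 41102 (33278 to 49805) in controls, and 4 of the 7 fell. At 28 d the same sum was 28893 (13406 to 47434) at 40 mg/mL and 39688 (10809 to 53731) in controls, and none of the 7 passed the test. At 20 mg/mL and 28 d the sum had a lower median, 22610 (10135 to 37415). In bulk tissue, fewer cells of a type and less RNA per cell cannot be told apart. All 6 adipocyte markers, Lep among them, had a median count of 0, as did 6 of 8 pancreatic acinar markers. Because probes differ in how well they are ligated, levels of different probes or genes are not compared with each other.

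Fgf21, the fasting hormone, was far above its controls in some animals at 40 mg/mL and within their range in others. In the 28 d group at 40 mg/mL, probe Fgf21_29090 ran from 0.305 CPM through a median of 15.2 to 162 CPM in 9 animals. The 28 d controls ran from 0.245 through 3.66 to 8.32 CPM. Replicates 1, 3, 4, 6 and 7 of the dosed group, at 20.7, 162, 46.0, 47.5 and 15.2 CPM, lay above every control. The other 4 dosed animals lay inside the control range, at 0.305 to 1.77 CPM. The fitted difference was a log2 fold change of 2.95 (SE 0.76), a 7.72-fold higher group mean. Without replicate 3 it was 1.98 (3.94-fold), that animal holding 1470 counts of the probe. The second probe, Fgf21_71031, gave 3.36 (SE 0.82) and set the same 5 animals above all of its controls, at 11.0 to 79.7 CPM. At least 5 of 9 dosed animals above all controls was seen in 3.57% of the 17050 features tested.

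At 14 d the Fgf21 animals at 40 mg/mL also spread on both sides of the controls. Fgf21_29090 had a lowest value of 0, a median of 6.15 and a highest value of 22.5 CPM in 8 animals, against 0.558, 3.04 and 7.33 CPM in 9 controls. Replicates 1, 3, 4 and 6 lay above all controls (13.0% of features had at least 4 such animals), and replicate 9, with no count for either Fgf21 probe, lay below all of them. A count of 0 in that library allows up to 0.261 CPM, counting error only. The log2 fold change was 1.68 (SE 0.77) for Fgf21_29090 and 1.63 (SE 0.80) for Fgf21_71031. Leaving out replicate 1, the highest animal for both probes, gave 1.35 and 0.93.

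At 10 mg/mL both Fgf21 probes had lower medians than their controls, and at 20 mg/mL and 28 d the probes differed in direction. The medians at 10 mg/mL rest on few counts. At 14 d and 28 d they were 11 and 13 counts for Fgf21_29090 and 7 and 8 for Fgf21_71031. At 10 mg/mL and 28 d Fgf21_29090 ran from 0 through 1.35 to 2.00 CPM, and all 9 animals lay below the control median of 3.66 CPM (10.6% of features had at least 8 of 9 below it), with a log2 fold change of -1.80 (SE 0.82). At 10 mg/mL and 14 d it ran from 0.417 through 1.37 to 3.48 CPM, and 8 of 9 animals lay below the control median (7.20% of features had at least 8), with a log2 fold change of -0.87 (SE 0.81). The dose series for this probe had its lowest median at 10 mg/mL and its highest at 40 mg/mL at both durations: 3.04, 1.37, 1.85 and 6.15 CPM at 14 d and 3.66, 1.35, 1.44 and 15.2 CPM at 28 d, from 0 through 10 and 20 to 40 mg/mL. Neighbouring groups overlapped in every step of both series. At 20 mg/mL single animals stood high, with replicate 7 at 13.1 CPM at 14 d and replicates 8 and 9 at 10.7 and 10.6 CPM at 28 d. Fgf21_71031 had -1.32 (SE 0.86) and -1.22 (SE 0.87) at 10 mg/mL for 14 d and 28 d, and 0.26 (SE 0.80) at 20 mg/mL for 14 d. For 28 d at 20 mg/mL it ran from 0 through 2.88 to 13.0 CPM, against 0.118, 2.18 and 4.52 CPM in controls, with 0.82 (SE 0.79), where Fgf21_29090 had -0.42 (SE 0.75). Replicates 2, 8 and 9 held its highest values there, 6.03, 10.2 and 13.0 CPM.

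The 2 Fgf21 probes ranked the 71 animals much alike, with a Spearman rho of 0.79 that was the same after group means were removed. The pairs for Lepr (0.52) and Igfbp2 (0.26) ran less closely together, and in both of those genes 1 probe has few counts. These are descriptions across libraries that share depth and scaling.

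Gdf15, the stress hormone, had few counts in all groups, with group medians of 12 to 37 counts. After 14 d at 40 mg/mL it ran from 0.433 through 2.62 to 7.49 CPM, against 0.670, 1.94 and 4.56 CPM in controls. The ranges overlapped, and 2 of 8 animals (replicates 7 and 8) lay above all controls. At least 4 of 8 such animals was already seen in 13.0% of features, and the share for 2, which is no smaller, was not computed. The log2 fold change was 0.68 (SE 0.56). At 28 d the dosed animals, at 0.285 through 1.88 to 3.50 CPM, lay within the control range of 0 to 4.98 CPM (median 1.76), with 0.08 (SE 0.56). The largest differences for Gdf15 were at the middle dose. At 20 mg/mL it was 1.11 (SE 0.55) at 14 d, with animals from 1.74 through 3.75 to 10.6 CPM, and 0.91 (SE 0.55) at 28 d, with animals from 0 through 2.26 to 10.9 CPM. The value at 14 d was 0.85 without dosed replicate 2. The value at 28 d was 0.44 without dosed replicate 6 and 1.29 without control replicate 3. The GDF15 receptor GFRAL and the co-receptor RET could not be tested: neither gene passed the filter in liver.

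Klb, the co-receptor for FGF21 and FGF15, had differences of at most 0.25 on the log2 scale in either direction. At 40 mg/mL for 14 d it ran from 14.0 through 31.6 to 44.9 CPM, against 19.5, 37.8 and 53.3 CPM in controls, with a log2 fold change of -0.25 (SE 0.17). At 28 d the dosed animals ran from 20.3 through 34.2 to 53.2 CPM, and the controls from 28.8 through 32.8 to 43.8 CPM, with a difference of -0.01 (SE 0.17). Across the 6 dose comparisons its log2 fold changes lay between -0.25 and 0.12. Some animals were outside the controls: at 20 mg/mL for 28 d it ran from 16.2 through 31.0 to 40.3 CPM, and 4 of 9 animals lay below the lowest control, 28.8 CPM (9.72% of features had at least 4), with -0.19 (SE 0.17). That group had the highest median scaling factor at 28 d, 1.14, whose part was not tested. With library totals in place of TMM the median of all features at 40 mg/mL and 14 d was 0.54, and the Klb value turned to 0.18, which is -0.36 relative to that median.

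Lepr was higher at 40 mg/mL at both durations, and at 28 d almost without overlap. At 28 d probe Lepr_72275 ran from 15.1 through 24.0 to 79.7 CPM in dosed animals, against 4.96, 8.32 and 19.4 CPM in controls. Of the dosed animals, 8 of 9 lay above every control, which 0.117% of the features tested matched, and replicate 8 at 15.1 CPM was below only the highest control. The log2 fold change was 1.84 (SE 0.50), or 3.59-fold. At 14 d the 8 dosed animals ran from 10.1 through 25.9 to 71.3 CPM, against 3.84, 10.0 and 16.3 CPM in controls. Replicates 2 and 7, at 10.1 and 15.5 CPM, lay inside the control range and the other 6 above it (2.13% of features had at least 6), with 1.69 (SE 0.51), or 3.22-fold.

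At 10 and 20 mg/mL for 14 d the groups of Lepr_72275 each held a single very high animal. Replicate 2 at 10 mg/mL held 123 CPM and replicate 9 at 20 mg/mL held 134 CPM, the 2 highest values of Lepr_72275 in the study and above every animal at 40 mg/mL. Both libraries had a scaling factor of 1.26, against a group median of 0.900 at 10 mg/mL and 0.937 at 20 mg/mL. The medians of those groups, 9.65 and 14.3 CPM, compare with 10.0 CPM in controls. The fitted log2 fold change at 10 mg/mL was 1.38 (SE 0.49), and 0.40 without replicate 2. At 20 mg/mL it was 1.57 (SE 0.50), and 0.68 without replicate 9. At 28 d no such animal was seen: 10 mg/mL ran from 3.69 through 5.00 to 11.9 CPM and 20 mg/mL from 7.21 through 14.7 to 31.1 CPM. The second probe, Lepr_71105, had a group median of 2 to 19 counts. It gave 1.55 (SE 0.83) at 40 mg/mL for 14 d, or 0.92 without replicate 9, and 1.70 (SE 0.81) for 28 d. Its difference at 10 mg/mL for 14 d was larger than that at 40 mg/mL: it ran from 0.102 through 2.05 to 6.00 CPM, against 0, 0.558 and 1.24 CPM in controls, and 6 of 9 animals lay above all controls (0.833% of features had at least 6). The log2 fold change there was 1.94 (SE 0.82), and 1.53 without replicate 2. Which of the long, short and soluble forms the probes read is not stated in the table.

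Igfbp1, the insulin-repressed binding protein, varied more than 10-fold between animals of several groups, controls included. After 28 d at 40 mg/mL it ran from 21.5 through 83.2 to 290 CPM, against 30.3, 86.6 and 146 CPM in controls. The medians were close, while replicates 3, 4, 6 and 7, at 173, 149, 290 and 241 CPM, lay above every control and replicates 5 and 8 below every control. The share of features with at least 4 of 9 animals above all controls was not computed. It is no smaller than the 3.57% seen for at least 5 of 9, so that figure does not show how rare the Igfbp1 count is. No share was computed for animals below all controls. The log2 fold change was 0.59 (SE 0.47). It was -0.08 without the 11 libraries with the highest scaling factors, 1.26 and above, replicates 6 and 7 among them. At 14 d the dosed animals ran from 29.8 through 80.7 to 367 CPM and the controls from 19.7 through 103 to 213 CPM, with 0.34 (SE 0.48), which became -0.12 without replicate 3, the animal at 367 CPM. At 10 mg/mL Igfbp1 was lower. It ran from 16.2 through 50.0 to 81.9 CPM at 14 d, with all 9 animals below the control median (-1.06, SE 0.48). At 28 d it ran from 13.5 through 33.7 to 94.3 CPM, with 8 of 9 below the control median (-0.93, SE 0.48). At least 8 of 9 animals below that median was seen in 7.20% of features at 14 d and 10.6% at 28 d. The Fgf21 values at 10 mg/mL given above share these dosed and control animals.

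Igfbp2 was lower at 40 mg/mL at 14 d, and at 28 d its range overlapped that of the controls. Probe Igfbp2_70464 ran from 2.53 through 14.5 to 16.9 CPM at 40 mg/mL for 14 d, against 22.9, 26.0 and 34.3 CPM in controls. The groups did not overlap, as in 0.587% of features with all dosed animals below all controls, and the log2 fold change was -1.21 (SE 0.29), or 2.31-fold lower. It was not called with log2 of the factor in the model (-0.41), without replicates 1 and 7 (-0.92) or without the libraries of high factor (-0.81). The summed hepatocyte markers were lower in the same group, as given above, and their part in the difference was not tested. At 28 d the dosed animals ran from 8.48 through 16.6 to 54.8 CPM and the controls from 6.77 through 25.1 to 36.9 CPM, with -0.04 (SE 0.28). That mean includes replicate 2 at 54.8 CPM, the highest animal of the group, and was -0.33 without it. The lowest control at 28 d was replicate 3 at 6.77 CPM, in a library with a scaling factor of 1.37. The difference between the 40 mg/mL effects at 28 d and at 14 d was 1.17 (SE 0.40) on the log2 scale, and it was not called (0% of features were); for Lepr_72275 it was 0.16 (SE 0.70) and for Fgf21_29090 it was 1.27 (SE 1.06). The second probe, Igfbp2_66324, had group medians of 12 to 25 counts and gave -0.50 (SE 0.48) at 14 d and -0.32 (SE 0.47) at 28 d.

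**Figure D2:**
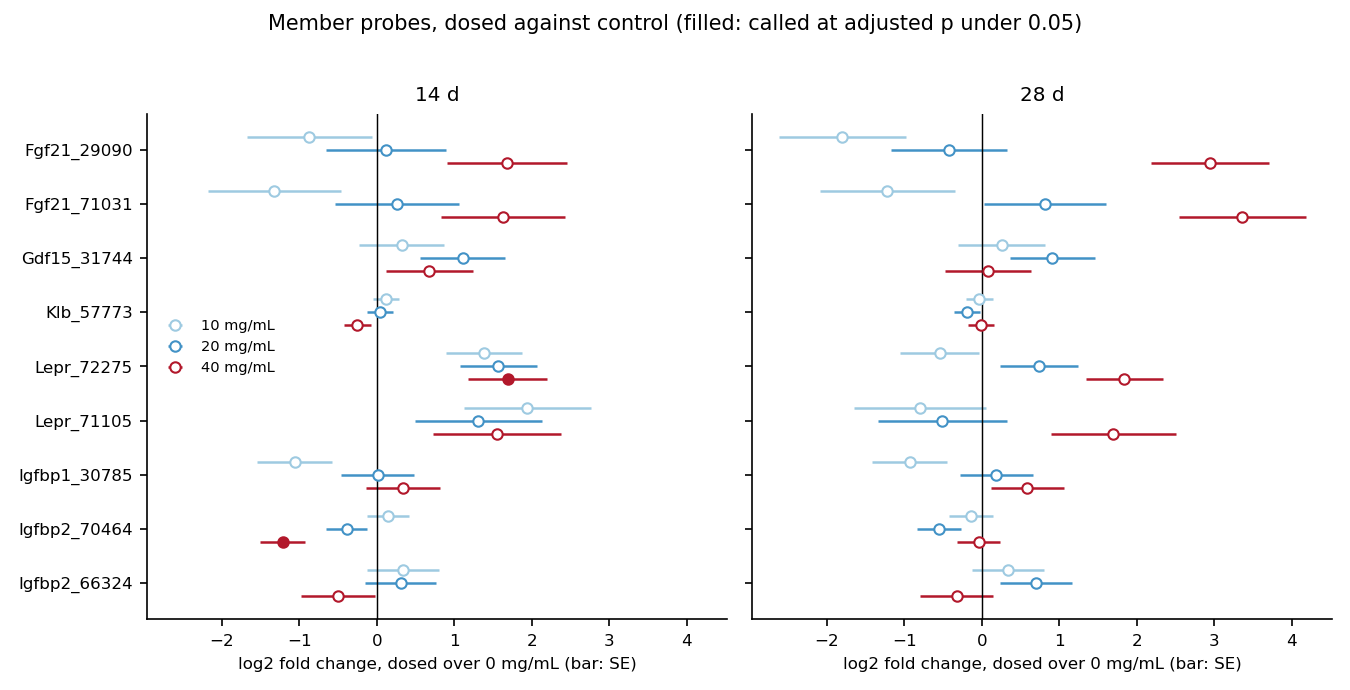
Log2 fold change of each probe, dosed over 0 mg/mL of the same duration, with its standard error, for 10, 20 and 40 mg/mL at 14 d (left) and 28 d (right); filled points were called at an adjusted p under 0.05. The filled points are Lepr_72275 (1.69) and Igfbp2_70464 (-1.21) at 40 mg/mL and 14 d, and the values farthest from 0 are those of Fgf21 at 40 mg/mL and 28 d (2.95 and 3.36).

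By edgeR's quasi-likelihood test with Benjamini-Hochberg adjustment over all features, 2 of the 9 probes were called at 40 mg/mL and 14 d, Lepr_72275 and Igfbp2_70464, beside 6.52% of all features. None was called at 40 mg/mL and 28 d, where 0.00587% of features were (1 of 17050), while 4 had an unadjusted p under 0.05, beside 6.32% of features. DESeq2 called 3 of 9 there, both Fgf21 probes and Lepr_72275, beside 0.176% of features, and a fit of only the 2 groups called Lepr_72275. None was called at 20 mg/mL, where 0.0352% of features were called at 14 d and 0.158% at 28 d, or at 10 mg/mL, where 0% were. An unadjusted p under 0.05 was found for 3 probes at 10 mg/mL and 14 d (4.32% of features), 1 at 10 mg/mL and 28 d (4.15%), 2 at 20 mg/mL and 14 d (6.05%) and 0 at 20 mg/mL and 28 d (15.1%). Since the genes were chosen with such results known, nothing is read from these counts. At 14 d the call of Lepr_72275 was lost without dosed replicate 3 or 9 or without control replicate 2, 3 or 8, with log2 fold changes of 1.40 to 1.82 over all such omissions.

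The 1 feature called at 40 mg/mL and 28 d was a probe of Serpina7, which encodes thyroxine-binding globulin, the carrier of thyroid hormone in blood; it is named here after its values were seen. It ran from 51.6 through 288 to 1341 CPM in 9 dosed animals, against 14.2, 21.2 and 64.2 CPM in 9 controls (log2 fold change 4.04, SE 0.75, edgeR adjusted p = 0.0166), with 8 of 9 above all controls. It was called in each of 10 alternatives, but not without control replicate 1, 2, 4, 7 or 8, with values of 3.65 to 4.30 over 18 omissions. By a rule of likeness over all features, it was also the second of the 3 probes whose log2 CPM followed Lepr_72275 most closely over the 71 libraries (Spearman rho 0.65; 0.33 after group means were removed). The others were Pcgf2 (0.67), a polycomb gene, and Gm3839 (0.62). Pcgf2 rose at 14 d at 40 mg/mL, with medians of 19.0 CPM in dosed animals and 11.2 CPM in controls (log2 fold change 0.78, SE 0.19, edgeR adjusted p = 0.00622; not called with the factor as a covariate or with the failed library kept), and at 28 d had 0.73 (SE 0.19, edgeR adjusted p = 0.143).

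The probes most like the other members were named by the same rule, as a description. Fgf21_29090 was followed by both probes of Plin2 (rho 0.68 and 0.67), which encodes a lipid droplet coat protein, and by Atf5 (0.61), a transcription factor of the stress response, and all 3 kept a rho of 0.62 to 0.67 after group means were removed. For neither gene did the dose difference pass the test: Plin2_78909 had a log2 fold change of 0.22 (SE 0.22, edgeR adjusted p = 0.966) at 40 mg/mL and 28 d, and Atf5_29795 one of 0.14 (SE 0.15, edgeR adjusted p = 0.968). Igfbp1 was followed by Nfil3 (0.58) and Gadd45g (0.57). Klb was followed by Urah, Tspo and Fah (0.57 each), and Gdf15 by Naprt (0.55), Mettl27 (0.53) and Dock9 (0.52). Igfbp2_70464 was followed by a probe of Serpina1e (0.77), an antitrypsin of hepatocytes, and by 2 probes of Igfbp4 (0.76 each), another insulin-like growth factor binding protein.

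**Figure D3:**
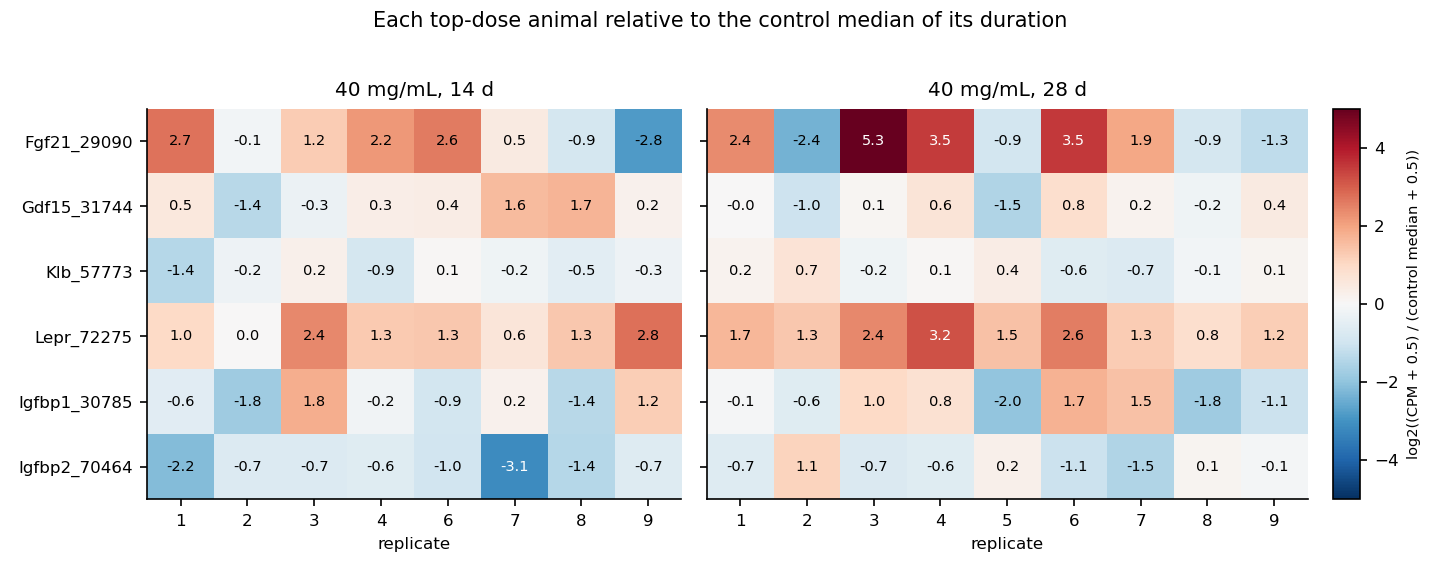
Each animal at 40 mg/mL (columns, by replicate number) relative to the control median of its duration, as log2((CPM + 0.5)/(median + 0.5)), for 6 probes at 14 d (left) and 28 d (right). Lepr_72275 is at or above its control median in every column, whereas Fgf21_29090 runs from -2.82 to 2.70 at 14 d and from -2.37 to 5.29 at 28 d.

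The animals of a top-dose group differed widely from each other. At 28 d replicates 3, 4, 6 and 7 were above all controls for both Fgf21_29090 and Igfbp1. The same 4 animals had Igfbp2_70464 below its control median, at 15.0, 16.6, 11.6 and 8.48 CPM. So did replicates 1 and 9, at 15.8 and 23.2 CPM. Of these, replicate 9 held Fgf21_29090 at 1.21 CPM and Igfbp1 at 40.9 CPM, both below their control medians. Replicate 2 stood at the other end, with Fgf21_29090 at 0.305 CPM, Igfbp2_70464 at 54.8 CPM and Klb at 53.2 CPM. At 14 d the pattern was not the same: replicate 9, with no Fgf21 count, held the highest Lepr_72275 value (71.3 CPM) and the second highest Igfbp1 value (241 CPM), while replicate 3 was high for all 3 genes. Within the 28 d group of 9 animals, Fgf21 and Igfbp1 had r = 0.79 (exact permutation p = 0.0176) and rho = 0.72 (exact permutation p = 0.0369), and r was 0.85 without the 2 animals farthest from the Fgf21 median. Igfbp1 and Igfbp2 had r = -0.77 (exact permutation p = 0.0149) and rho = -0.87 (exact permutation p = 0.00451), with r of -0.73 without the 2 animals farthest from the Igfbp1 median. Klb and Igfbp2 had the largest r, 0.87 (exact permutation p = 0.00215), with rho = 0.85 (exact permutation p = 0.00607) and r of 0.75 without the 2 animals farthest from the Klb median. The log2 scaling factor moved with these levels in the same 9 animals, at r = -0.79 and rho = -0.75 with Igfbp2 (exact permutation p = 0.0118 and 0.0255) and r = -0.84 and rho = -0.70 with Klb (exact permutation p = 0.00576 and 0.0433). Replicates 6 and 7 had the highest factors of the group, 1.35 and 1.40, and the part of the factor in the pairs was not tested. In the same group Fgf21 also had r = -0.79 and rho = -0.75 with Igfbp2, and r = 0.76 and rho = 0.72 with Lepr. The 14 d group of 8 animals did not show the 3 pairs named first. There r was -0.21 for Fgf21 and Igfbp1, 0.08 for Igfbp1 and Igfbp2 and 0.28 for Klb and Igfbp2. The rho values were -0.02, 0.12 and -0.07 in that order. None of the 42 correlations computed within the 2 top-dose groups passed after Benjamini-Hochberg adjustment over them. The adjusted exact permutation p of the first pair was 0.103 for r and 0.194 for rho (n = 9), that of the second 0.103 and 0.128, and that of Klb and Igfbp2 0.0904 and 0.128. With the factor they were 0.103 and 0.194 for Igfbp2 and 0.103 and 0.202 for Klb (exact permutation, adjusted, n = 9).

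Over all 71 animals, with group means removed and labels permuted within groups, few member levels were correlated past the threshold. Of 21 correlations, 15 between members and 6 with the log2 scaling factor, 4 passed by Pearson's r and 2 of these by Spearman's rho as well. Igfbp2_70464 was lower in libraries with a high factor (r = -0.69, permutation p = 1e-05, the smallest that 100000 permutations can give, adjusted 0.00021; rho = -0.54, p = 4e-05, adjusted 0.00084), with r = -0.62 without the 2 farthest libraries. Gdf15 was higher in them (r = 0.46, permutation p = 0.00032, adjusted 0.0034; rho = 0.48, p = 0.00013, adjusted 0.0014), with r = 0.41 without the 2 farthest. Klb was lower by r only (r = -0.38, permutation p = 0.004, adjusted 0.028; rho = -0.26, p = 0.047, adjusted 0.16), and the pair Klb and Igfbp2 likewise (r = 0.36, permutation p = 0.0074, adjusted 0.039; rho = 0.29, p = 0.02, adjusted 0.13), with r of -0.35 and 0.33 without the 2 farthest. Without the libraries of high factor (n = 60), r was -0.43 for Igfbp2 and 0.47 for Gdf15 with the factor, -0.14 for Klb with the factor and 0.18 for Klb with Igfbp2. Over all 71 animals Fgf21 and Igfbp1 had r = 0.23 (permutation p = 0.098, adjusted 0.27). Fgf21 and Lepr showed r of 0.04 and 0.06 with the factor. A CPM is divided by the factor, so the 2 measures are not independent.

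**Figure D4:**
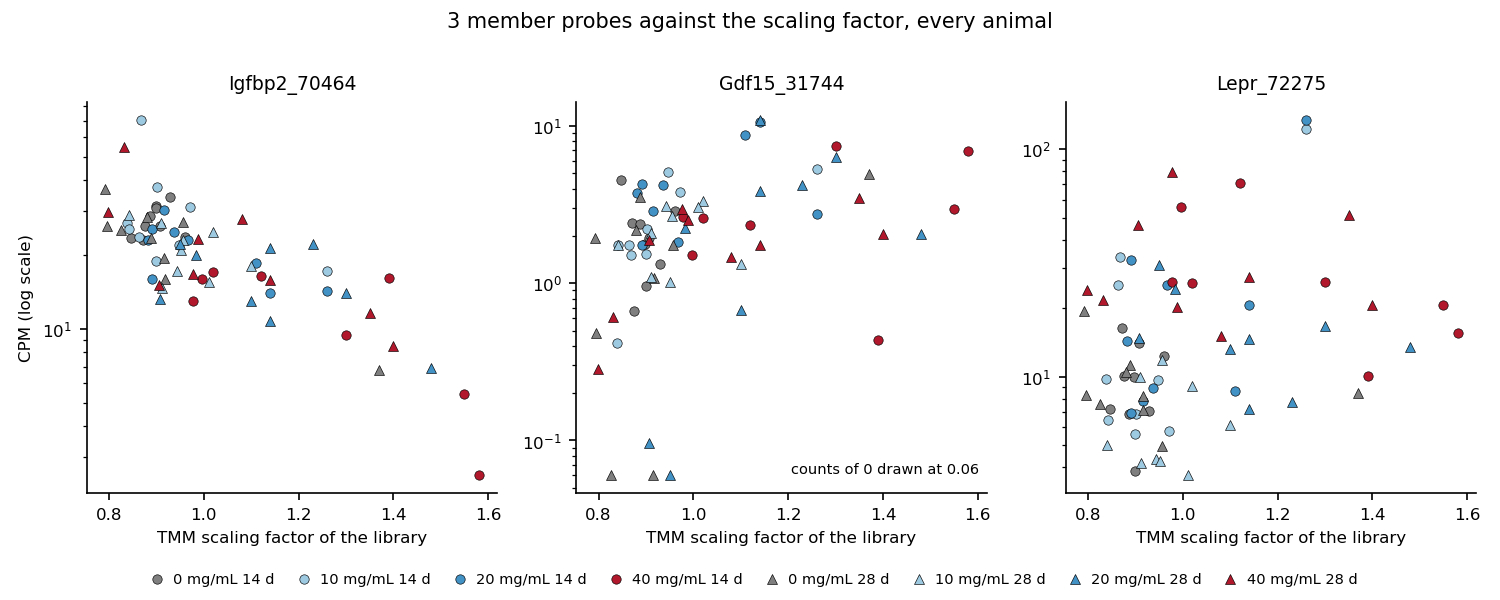
CPM (log scale) of Igfbp2_70464, Gdf15_31744 and Lepr_72275 against the TMM scaling factor of the library for 71 animals; colours are doses in mg/mL, circles 14 d and triangles 28 d, and counts of 0 are drawn at 0.06. Igfbp2_70464 runs down to 2.53 CPM in the library with the highest factor (1.58), and the 2 highest Lepr_72275 values (123 and 134 CPM) are in libraries with a factor of 1.26.

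The genes around these hormones were read from 11 lists of 135 genes, all of them in the table, where 1 probe stood for a gene. Their p-values are edgeR's, adjusted over all features. At 40 mg/mL and 14 d the insulin-like growth factor and growth hormone list had 5 of 13 tested genes falling and none rising, beside 6.52% of all features called in either direction (median log2 fold change -0.51, against 0.06 over all features). Igf1, the growth factor itself, fell to a mean of 28.2 ± 5.32 CPM at 40 mg/mL, against 50.7 ± 9.61 CPM in controls (SD, n = 8 and 9; log2 fold change -0.85, edgeR adjusted p = 4.74e-05); a second Igf1 probe had -0.02 (SE 0.80) and was not called. Igfals, which holds IGF1 in its ternary complex in blood, fell to 2.82 ± 2.34 CPM, against 7.98 ± 2.20 CPM (SD, n = 8 and 9; -1.52, edgeR adjusted p = 0.000757). Igfbp4, whose 3 probes all fell, had 890 ± 331 CPM at 40 mg/mL and 1504 ± 174 CPM in controls (SD, n = 8 and 9; -0.76, edgeR adjusted p = 0.00362). Igf1 and Igfals were called in each of 10 alternatives and in each omission of a library, whereas Igfbp4 was lost with the factor as a covariate, with the failed library kept, without replicates 1 and 7 and without the libraries of high factor. The list's 5 falls became 2 with the covariate and 3 with library totals, with the failed library kept, without replicates 1 and 7 or without the libraries of high factor.

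Of 17 other hepatokines, proteins the liver secretes as signals, 5 fell at 40 mg/mL and 14 d and none rose (median -0.29). Ahsg, which encodes fetuin-A, fell to 957 ± 365 CPM, against 2272 ± 395 CPM in controls (SD, n = 8 and 9; log2 fold change -1.25, edgeR adjusted p = 1.47e-05), with 8 of 8 animals below all controls. Fetub had 153 ± 96.1 CPM at 40 mg/mL and 339 ± 46.7 CPM in controls (SD, n = 8 and 9; -1.15, edgeR adjusted p = 0.00244). Lect2 had 275 ± 155 CPM and 527 ± 38.2 CPM in the same order (SD, n = 8 and 9; -0.94, edgeR adjusted p = 0.014). These are hepatocyte products, and the summed hepatocyte markers were lower in the same animals; the part of the one in the other was not tested. Fetub and Lect2 were not called with the factor as a covariate, without replicates 1 and 7 or without the libraries of high factor, and the 5 falling hepatokines became 2, 1 and 1 in those settings. With library totals, where 6422 of all 17050 features were called and 95.4% of those were higher, 3 fell and 3 rose. With only the 2 groups fitted 3 fell.

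Among the receptors, 1 of 4 tested FGF receptor genes fell: Fgfr4, the main FGF receptor of hepatocytes and the partner of beta-Klotho for FGF15, had 38.7 ± 7.88 CPM at 40 mg/mL for 14 d and 54.8 ± 9.41 CPM in controls (SD, n = 8 and 9; log2 fold change -0.50, edgeR adjusted p = 0.00144). It was not called with library totals in place of TMM or without the libraries of high factor. Of 9 genes of leptin signalling, Leprotl1, a relative of the leptin receptor overlapping transcript, fell (-0.58, edgeR adjusted p = 0.0248), and 8 did not pass, Socs3, Stat3 and Jak2 among them.

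Each of 6 lists of genes under the same upstream signals as Fgf21 and Igfbp1 had 0 or 1 gene called at 40 mg/mL and 14 d, beside 6.52% of all features, and nothing is read from those counts. None of 20 tested targets of PPARA and ketogenesis (median 0.13) and none of 12 regulators of the fasting response (median -0.01) passed. Of 11 genes of gluconeogenesis and amino acid use, Oat, ornithine aminotransferase, fell (-0.87, edgeR adjusted p = 0.0363); of 12 genes of the insulin and carbohydrate response, Pklr, the liver pyruvate kinase, rose (0.87, edgeR adjusted p = 0.0369). Of 17 targets of the integrated stress response (median 0.17), Ddit4 rose (2.89, edgeR adjusted p = 0.0376), with a mean of 2.17 CPM in dosed animals and 0.285 CPM in controls. Of 11 p53 targets (median 0.35), Ccng1 rose (0.55, edgeR adjusted p = 0.0139). Each of these single calls, and that of Leprotl1, was lost when certain single libraries were left out. The call of Oat was lost without control replicate 1, 3 or 4 or dosed replicate 1, 3, 4 or 7, and that of Pklr without control replicate 1, 2, 3, 4, 5 or 8 or dosed replicate 1, 3 or 6. The call of Ddit4 was lost without control replicate 1, 2, 3, 5, 6 or 8 or dosed replicate 1, 7 or 9, that of Leprotl1 without control replicate 8 or dosed replicate 1, 2, 7 or 8, and that of Ccng1 without dosed replicate 1 or 7. With library totals in place of TMM the median of all features was 0.54, against 0.06, and genes rose in each of these lists: 7 of 12 fasting regulators, 9 of 20 PPARA and ketogenesis genes, 2 of 11 of gluconeogenesis, 4 of 12 of the insulin response, 6 of 17 of the stress response and 4 of 11 p53 targets. In the leptin signalling list 3 of 9 then rose. In that setting 6422 of all 17050 features were called, 95.4% of them higher, and nothing is read from these list counts. At 40 mg/mL and 28 d, and at 10 and 20 mg/mL at both durations, no gene of the 11 lists was called.

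**Figure D5:**
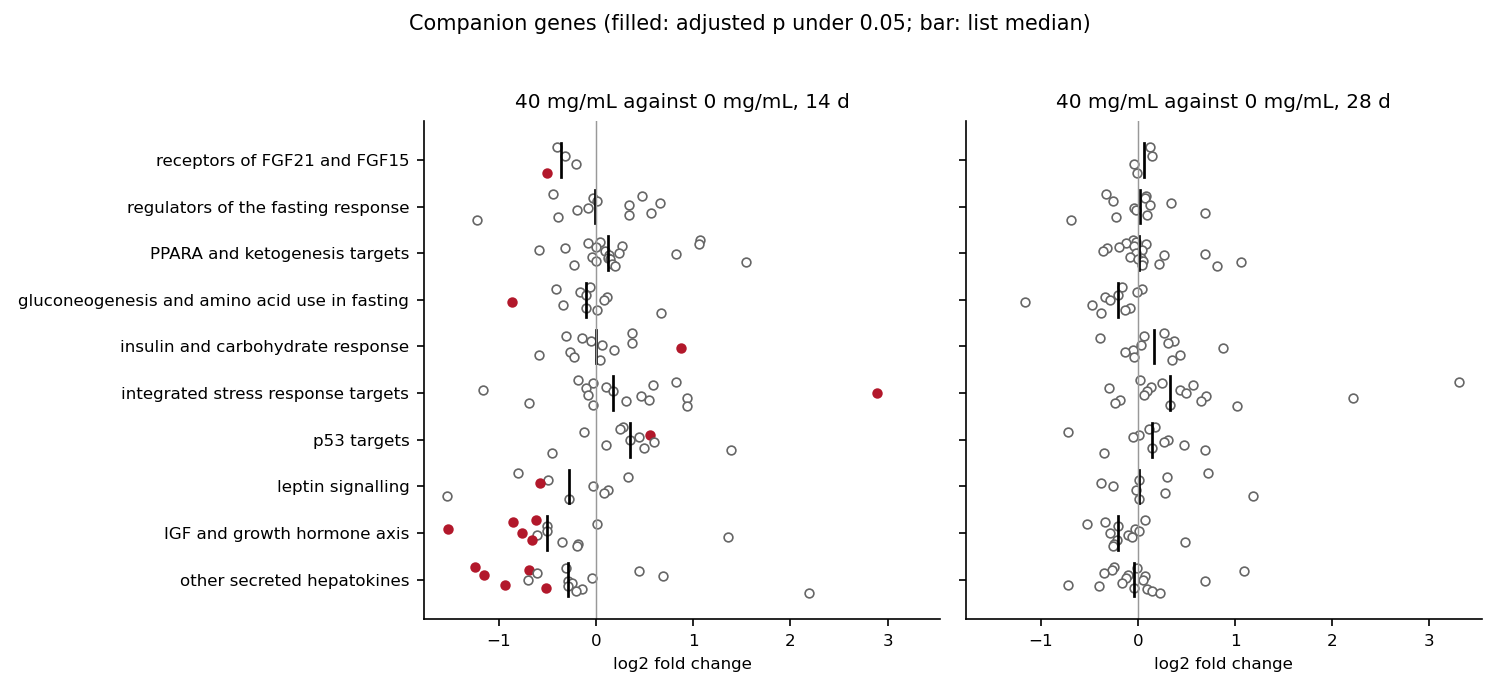
Log2 fold change of each tested gene of 10 companion lists at 40 mg/mL against 0 mg/mL, at 14 d (left) and 28 d (right); filled points passed an adjusted p under 0.05 and bars are list medians. At 14 d the filled points of the growth factor axis and of the hepatokines all lie below 0 (5 each), and at 28 d no point is filled; the GDF15 receptor list is not drawn because neither of its genes could be tested.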

How the data were processed

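The authors deposited 1 table of raw read counts per probe for 72 libraries, whole numbers that are neither scaled nor logged. Per the submitters' processing notes, bcl2fastq 2.20 and Bowtie were used; the Bowtie version, genome build and counting tool are not given in the sources used here. The submitters' labels give dose and duration and no batch, and replicates are numbered in listed order. Libraries under 100000 counts were left out (1), and filterByExpr kept 17050 probes. Counts were tested with edgeR 4.0.16 in R 4.3.3 (TMM, robust quasi-likelihood fit, 1 mean per group, 71 libraries), with Benjamini-Hochberg adjustment at 0.05, also tested on simulated data; log2 CPM used a prior count of 2. No 2 libraries of a group were identical. Alternatives included DESeq2 1.42.0.

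The members, gene lists and marker lists were chosen with earlier results of these data known. Named by rule were all member probes, up to 3 called genes per list with the smallest p at 40 mg/mL, and the 3 probes most like each member, of which 1 is not reported here.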

Additional observations from a re-analysis of the deposited data

Results flagged for a closer look

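Of 72 checks, 1 for each probe in each group, 4 found an animal set apart from the rest of its group by a gap that was large against the group's range on the log2 CPM scale. Chance gives such a gap in about 1 of 20 groups, so a few of 72 are to be had by chance. In all 4 the animal was the lowest of its group. Fgf21_29090 was 0 in replicate 6 at 10 mg/mL for 28 d, where the next animal held 0.582 CPM. Fgf21_71031 was 0.118 CPM in replicate 8 of the 28 d controls, next to 1.14 CPM. Igfbp2_66324 was 0 in replicate 1 at 40 mg/mL for 14 d, next to 0.692 CPM. Igfbp2_70464 was 6.77 CPM in replicate 3 of the 28 d controls, next to 15.9 CPM, and that library had the highest scaling factor of its group (1.37).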

How the results depend on the processing

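Counts of features called, in the order of the doses above 0, were 0, 6 and 1111 at 14 d and 0, 27 and 1 at 28 d by edgeR's quasi-likelihood test. DESeq2 gave 12 at 10 mg/mL and 17 at 20 mg/mL for 14 d, 223 at 20 mg/mL and 30 at 40 mg/mL for 28 d, and 22 for the difference between durations at 40 mg/mL, against 0 by edgeR (1081 at an unadjusted p under 0.05). Library totals in place of TMM gave 11, 16 and 6422 at 14 d, and 156 and 10 at 20 and 40 mg/mL for 28 d. With library totals 95.4% of the calls at 40 mg/mL and 14 d were higher in dosed animals, against 43.6% with TMM. The log2 scaling factor as a covariate gave 8, 25 and 555 at 14 d, with 64.1% of the 555 higher, and 12 and 66 at 20 and 40 mg/mL for 28 d. Keeping the failed library gave 1 and 464 (20.5% higher) at 20 and 40 mg/mL for 14 d, and 0 at 20 mg/mL for 28 d. Fitting only the 2 groups compared gave 7 and 645 at 10 and 40 mg/mL for 14 d, and 11, 52 and 25 at 28 d; this could not be done for the difference between durations. Without replicates 1 and 7 of 40 mg/mL and 14 d the counts were 4 and 273 at 10 and 40 mg/mL for 14 d, and 70 at 20 mg/mL for 28 d. Without the 11 libraries with factors of 1.26 and above, a setting chosen after seeing the data, they were 7, 19 and 267 at 14 d, and 475 and 10 at 20 and 40 mg/mL for 28 d. Probes summed per gene gave 11 at 20 mg/mL for 14 d, and 63 and 5 at 20 and 40 mg/mL for 28 d. The size factors of DESeq2 in edgeR, and no filter on low counts, each gave 0 at 20 mg/mL for 28 d. The cause of these shifts was not tested. Leaving out each library in turn gave 0 to 5, 1 to 14 and 584 to 1496 at 14 d, the 584 without replicate 1 or 7 of 40 mg/mL, and 0 to 0, 0 to 760 and 0 to 17 at 28 d, the 760 without control replicate 3 and the 17 without replicate 5 of 40 mg/mL. For the difference between durations it gave 0 to 0.

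Of 751 member values under the other alternatives, 744 moved by less than 1 SD between replicates. That SD is of single animals and is wide beside a difference of group means. Some alternatives also hardly touch a comparison, so the count says little about stability. Only 2 member values were called, and neither changed sign. Igfbp2_70464 at 40 mg/mL and 14 d went from -1.21 to -0.41 with the covariate. Lepr_72275 at 40 mg/mL and 14 d was not called with the covariate (1.35), with the failed library kept (1.55) or without replicates 1 and 7 (1.88). Gdf15 there was -0.55 with the covariate. Low counts limit Gdf15, Lepr_71105 and Igfbp2_66324, whose group medians were at most 37 counts. They also limit both Fgf21 probes below 40 mg/mL. At 10 mg/mL the group medians of Fgf21_29090 were 11 counts at 14 d and 13 at 28 d, and those of Fgf21_71031 were 7 and 8.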
